A study of Mus musculus with 7 samples.

Results

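Adult neurogenesis genes, the genes that mark dividing progenitors, neuroblasts and immature granule neurons, were followed in RNA-seq of mouse hippocampus. The set held 9 genes, Eomes, Igfbpl1, Neurod1, Sox4, Sox11, Dcx, Stmn1, Dpysl3 and Calb2, chosen by name as known genes of these cells and found by the Ensembl identifiers that carry these symbols. Each symbol matched 1 of the 55416 gene identifiers in the count data. After genes with low counts were removed, 13152 genes were tested, among them 7 of the 9. Eomes and Igfbpl1 had too few reads for the test and are given as counts.

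All libraries came from hippocampus of age-matched male mice of the outbred CD1 stock, whose age is not stated. Control (untreated) mice received no injection and gave 3 libraries (replicates 1 to 3). ONX-0914-treated mice gave 2 libraries (replicates 1 and 2) after intraperitoneal injection of ONX-0914, an inhibitor of the immunoproteasome, at 10 mg/kg, 2 times per week for 2 months, and DMSO-treated mice gave 2 libraries (replicates 2 and 3) after the same schedule with DMSO, the solvent. The labels name no genetic change in any group. It is not stated whether each library came from a separate animal, so the p-values below measure the spread between these libraries, which may be technical in part. The sample was hippocampus tissue, of which young neurons are a small part. In such bulk tissue, fewer cells that make a gene and less RNA per cell cannot be told apart, which holds for all levels given here.

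In the adult dentate gyrus, stem cells with glial features divide and give rise to intermediate progenitors, which express the T-box transcription factor Eomes (Tbr2). Their daughters switch on Neurod1, a basic helix-loop-helix transcription factor needed for granule neurons to survive, and the related transcription factors Sox4 and Sox11, which activate the genes of the young neuron. Neuroblasts and immature neurons then carry doublecortin (Dcx), a protein that binds and stabilises microtubules and is the standard marker of adult neurogenesis, with stathmin (Stmn1), which destabilises microtubules, and the collapsin response mediator Dpysl3, which acts in growing axons. Calretinin (Calb2), a calcium-binding protein, marks a short stage after the last division, before granule neurons make calbindin instead. In the mouse hippocampus, Calb2 is also made by mossy cells of the hilus, by a class of interneurons and by Cajal-Retzius cells, and it is abundant in parts of the thalamus. Dcx, Stmn1 and Dpysl3 are likewise not confined to young neurons, so that no single gene of the set counts them.

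Promoter sequences are shown for Dcx, Sox4 and Neurod1, the members whose ONX-0914 libraries lay apart from all control and all DMSO libraries. They are the RefSeq sequences of mouse build GRCm38.p6, from 250 bases before to 50 bases after the start of the gene, read 5′ to 3′ on the strand of the gene, which is the minus strand for all of them. The RefSeq promoter table held 5 of the 9 genes, including Sox11 and Eomes. Capitals mark E-boxes, written CANNTG, the motif that binds basic helix-loop-helix proteins such as Neurod1.
Dcx promoter, chrX:143933170-143933469: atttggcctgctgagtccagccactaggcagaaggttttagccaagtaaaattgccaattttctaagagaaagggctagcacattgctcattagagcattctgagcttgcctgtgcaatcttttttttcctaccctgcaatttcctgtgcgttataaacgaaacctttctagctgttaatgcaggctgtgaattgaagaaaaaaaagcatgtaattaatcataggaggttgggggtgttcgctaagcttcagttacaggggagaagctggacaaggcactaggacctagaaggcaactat
Sox4 promoter, chr13:28953650-28953949: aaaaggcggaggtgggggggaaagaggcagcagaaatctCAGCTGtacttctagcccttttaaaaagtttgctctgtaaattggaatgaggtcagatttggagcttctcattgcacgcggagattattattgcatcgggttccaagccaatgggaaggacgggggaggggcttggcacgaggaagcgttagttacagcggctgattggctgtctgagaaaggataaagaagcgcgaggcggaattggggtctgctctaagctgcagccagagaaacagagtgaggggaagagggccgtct
Neurod1 promoter, chr2:79456587-79456886: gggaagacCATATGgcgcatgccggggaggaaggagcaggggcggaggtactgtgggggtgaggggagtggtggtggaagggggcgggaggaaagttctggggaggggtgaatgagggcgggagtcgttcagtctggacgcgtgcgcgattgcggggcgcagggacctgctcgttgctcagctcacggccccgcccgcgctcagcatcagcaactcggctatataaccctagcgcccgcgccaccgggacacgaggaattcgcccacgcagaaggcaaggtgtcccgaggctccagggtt

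The promoters differed in base composition. The Dcx promoter was 43% G or C with 3 CG dinucleotides, that of Sox4 52% with 12, and that of Neurod1 66.7% with 26, where the median over the 32851 promoters of this length was 52.7% with 7. Counted on both strands, E-boxes numbered 1 in the promoter of Sox4, 1 in that of Neurod1, 2 in that of Sox11 and 0 in those of Dcx and Eomes, and 72.3% of all promoters held at least 1. CCAAT boxes numbered 4 in the promoter of Sox4, 2 in that of Eomes and 1 each in those of Dcx and Sox11. The Neurod1 promoter had 0, and 37.4% of all promoters held at least 1. TATAAA occurred 1 time, in the Dcx promoter (13.6% of all promoters hold it). The motif ACAAAG, the core bound by Sox proteins, occurred in none of these promoters and in 18.7% of all. No E-box in them shared a base with another of these motifs. Dcx had another listed start, whose promoter, chrX:143933075-143933374, also held no E-box and held ACAAAG once. These matches describe the letters in this window only.

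The total count on genes ranged from 2842675 to 3877006 in 6 libraries and was 13782270 in ONX-0914 replicate 2. The ONX-0914 libraries stood apart from the others and from each other. Markers of neighbouring regions were high in ONX-0914 replicate 1, where the summed level of 14 thalamus and midbrain markers was 1018 CPM (read counts scaled to a common library size) against 85.3 to 109 CPM in the other libraries, and that of 12 striatum markers was 1272 CPM against 141 to 217 CPM. Of hippocampal genes, the 6 pyramidal cell markers summed to 252 CPM in ONX-0914 replicate 1 against 640 to 789 CPM elsewhere, and the 10 mature granule cell markers summed to 355 CPM there, to 553 CPM in ONX-0914 replicate 2 and to 626 to 789 CPM elsewhere. The part of these shifts in the results below was not tested, and each member's Log2FC of ONX-0914 against control is therefore also given without this library or without the other one. Where 1 ONX-0914 library was left out, the remaining one was taken to vary like the other groups, and the share of all genes called was 51.2% without replicate 1 and 19% without replicate 2 in the comparison with control, so that a call made this way is common.

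Among the 7 genes tested, Dcx was the one that differed most between ONX-0914-treated and control mice by p-value, with a level 2.32-fold that of control in the fit and almost the same value in both ONX-0914 libraries. Sox11 was somewhat higher in both libraries from ONX-0914-treated mice than in control, and Sox4 and Neurod1 were lower in both. Stmn1, Dpysl3 and Calb2 were above the control libraries in one ONX-0914 library and below them in the other. No member was a DEG (differentially expressed gene, edgeR FDR under 0.05) in this comparison, in which 0.114% of all genes tested were. At an FDR under 0.1 there was 1 member, Dcx, against 1.48% of all genes, and at an unadjusted p under 0.05 there were Dcx and Sox4, against 18.6% of all genes. The libraries of both groups did not overlap for 4 members, 2 higher and 2 lower with ONX-0914, where this held for 33.2% of all genes (16.9% higher and 16.3% lower). DESeq2 called no member either, where it called 2.95% of all genes tested.

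**Figure D1:**
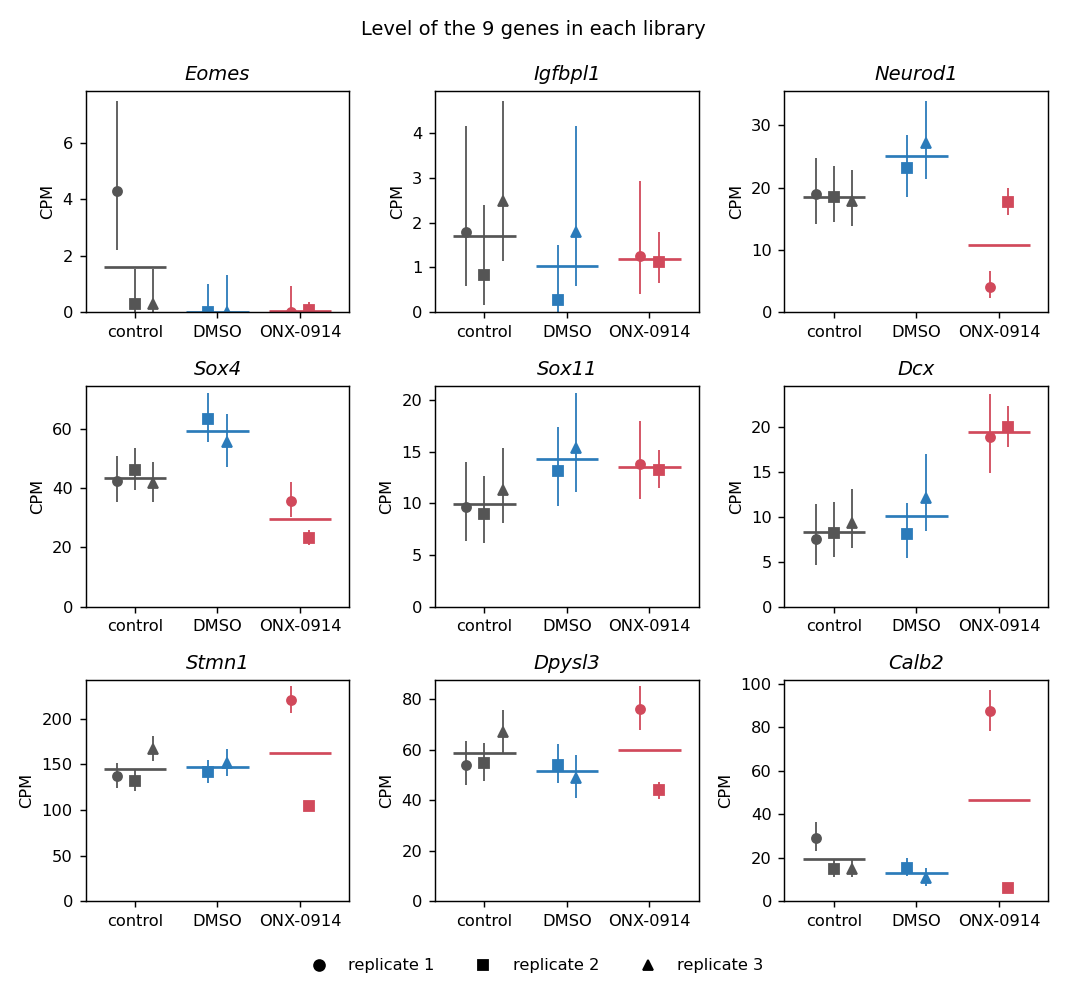
Level of each of the 9 genes in CPM (vertical axes, linear from 0) in the control, DMSO and ONX-0914 libraries. Points are libraries with their exact Poisson 95% intervals, which cover counting error only, and horizontal lines are group means. For Dcx the ONX-0914 libraries, at 18.9 and 20.0 CPM, lie together above all others, whereas for Calb2 they lie at 87.3 and 6.08 CPM, on either side of the other libraries.

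Eomes, the intermediate progenitor factor (ENSMUSG00000032446), was near the limit of detection. It had 12 reads in control replicate 1, 1 read each in control replicates 2 and 3 and in ONX-0914 replicate 2, and 0 reads in both DMSO libraries and in ONX-0914 replicate 1. In CPM this was 4.28 (95% Poisson interval 2.21 to 7.47) in control replicate 1 and 0.273 (0.00690 to 1.52) in control replicate 2, so that control replicate 1 alone stood out. The 0 reads in the shallower libraries allow up to 1.07 CPM in DMSO replicate 3, 0.805 CPM in DMSO replicate 2 and 0.755 CPM in ONX-0914 replicate 1 (3 reads each). No fold change is given, since the control level rested on a single library and the levels of the other control libraries lay under the limits of the libraries with 0 reads. A difference between groups was not detectable at this depth.

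Igfbpl1 (ENSMUSG00000035551), a secreted protein of the insulin-like growth factor binding protein family and a marker of neuroblasts, was also scarce. It had 5, 3 and 9 reads in the control libraries, 1 and 5 in those from DMSO-treated mice and 5 and 17 in those from ONX-0914-treated mice. The corresponding levels were 1.78, 0.818 and 2.48 CPM, 0.268 and 1.78 CPM, and 1.26 and 1.12 CPM. The groups overlapped, and the interval of the deepest library (0.654 to 1.80 CPM in ONX-0914 replicate 2) covered 2 of the 3 control values.

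Neurod1 (ENSMUSG00000034701), the granule neuron differentiation factor, lay at 18.9, 18.5 and 17.9 CPM in the control libraries, 23.1 and 27.1 CPM in the DMSO libraries and 4.03 and 17.6 CPM in the ONX-0914 libraries. The control libraries were tight (18.4 ± 0.505 CPM, SD, n = 3), both DMSO libraries lay above them, ONX-0914 replicate 2 lay just under the lowest of them, and ONX-0914 replicate 1 lay far below, with 16 reads. The fitted Log2FC of ONX-0914 against control was −0.66 ± 0.47 (SE, edgeR FDR 0.464). It was −0.07 without ONX-0914 replicate 1 and −2.19 without ONX-0914 replicate 2, so that 1 library set the size of the difference. With library sizes left at the total count, the ONX-0914 and control libraries overlapped.

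The low Neurod1 level in ONX-0914 replicate 1 stood beside low levels of its relatives that are made in mature pyramidal and granule neurons. Neurod6, a factor of excitatory neurons, lay at 17.4 CPM in that library, 192 CPM in ONX-0914 replicate 2 and 346 to 390 CPM in the other libraries. Neurod2 lay at 19.4 CPM, 136 CPM and 189 to 250 CPM, in the same order. Both were thus lowest in the library in which the pyramidal and granule cell markers were lowest.

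Sox4 (ENSMUSG00000076431) and Sox11 (ENSMUSG00000063632), both SoxC transcription factors, lay on opposite sides of control with ONX-0914. Sox4 was at 42.4, 46.1 and 41.6 CPM in the control libraries, 63.3 and 55.3 CPM in the DMSO libraries and 35.7 and 23.1 CPM in the ONX-0914 libraries. The 3 groups did not overlap, with DMSO highest and ONX-0914 lowest. Against control, the Log2FC of Sox4 with ONX-0914 was −0.58 ± 0.22 (SE), with an unadjusted p of 0.0321 and an edgeR FDR of 0.229. It was −0.92 without ONX-0914 replicate 1 and −0.28 without ONX-0914 replicate 2.

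Sox11 was at 9.63, 8.997 and 11.3 CPM in the control libraries, 13.1 and 15.4 CPM in the DMSO libraries and 13.8 and 13.2 CPM in the ONX-0914 libraries. All 4 libraries from injected mice lay above the 3 control libraries, by a small margin, and the ONX-0914 libraries lay within the range of the DMSO libraries. The Log2FC against control was 0.43 ± 0.23 with ONX-0914 (SE, edgeR FDR 0.346) and 0.51 ± 0.24 with DMSO (SE, edgeR FDR 1). The Log2FC of ONX-0914 against control stayed between 0.37 and 0.54 when any 1 library was left out.

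Dcx (ENSMUSG00000031285) was at 7.49, 8.18 and 9.36 CPM in the control libraries, 8.05 and 12.1 CPM in the DMSO libraries and 18.9 and 20.0 CPM in the ONX-0914 libraries. Both ONX-0914 libraries lay above all 5 others and close together, with 75 and 302 reads. These libraries differed from each other in depth, in neighbouring-region markers and in most other members, and the part of this in the Dcx level was not tested. The Poisson interval of ONX-0914 replicate 1, 14.8 to 23.7 CPM, lay above that of each control library, the highest of which reached 13.1 CPM, and that of ONX-0914 replicate 2 was 17.8 to 22.3 CPM. The interval of DMSO replicate 3, 8.41 to 16.96 CPM, overlapped with that of ONX-0914 replicate 1. The Log2FC against control was 1.21 ± 0.25 (SE, 95% interval 0.63 to 1.80), with an unadjusted p of 0.0013 and an edgeR FDR of 0.0943, which misses the threshold.

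The size of the Dcx difference from control moved little with the libraries used. The Log2FC was 1.24 without ONX-0914 replicate 1, 1.16 without ONX-0914 replicate 2 and between 1.15 and 1.31 when any 1 of the 7 libraries was left out. Its FDR depended on the fit, since it was 0.0265 with no filter on low counts, 0.036 with all 5 libraries without ONX-0914 as the reference, 0.0584 with DESeq2, and 0.325 to 0.405 without any 1 of the control libraries. In the first 2 of these settings, 2.15% and 2.61% of all genes tested were called. The other members of the doublecortin family in the fixed list of relatives, Dclk1, Dclk2 and Dclk3, had Log2FC values of 0.18, 0.04 and −0.48 against control.

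Stmn1 (ENSMUSG00000028832), the most abundant member per length, was at 137, 132 and 167 CPM in the control libraries, 142 and 152 CPM in the DMSO libraries and 220.2 and 104 CPM in the ONX-0914 libraries. Dpysl3 (ENSMUSG00000024501) was at 54.2, 54.8 and 66.9 CPM, 54.2 and 48.9 CPM, and 76.3 and 43.9 CPM, in the same order. For both genes ONX-0914 replicate 1 was the highest library of all 7 and ONX-0914 replicate 2 the lowest. The fitted differences from control were correspondingly small and wide, with a Log2FC of 0.15 (95% interval −0.52 to 0.82) for Stmn1 and 0.02 (−0.55 to 0.60) for Dpysl3. Their signs turned with the library left out, from −0.49 without ONX-0914 replicate 1 to 0.59 without ONX-0914 replicate 2 for Stmn1, and from −0.43 to 0.37 for Dpysl3. Tubb3, the neuronal tubulin, had the same order, with 764 CPM in ONX-0914 replicate 1, 224 CPM in ONX-0914 replicate 2 and 374 to 514 CPM in the other libraries.

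Calb2 (ENSMUSG00000003657) had the widest interval of the members tested. It was at 29.2, 14.996 and 14.9 CPM in the control libraries, 15.3 and 10.7 CPM in the DMSO libraries and 87.3 and 6.08 CPM in the ONX-0914 libraries. ONX-0914 replicate 1 was the highest library and ONX-0914 replicate 2 the lowest, and the control group itself spanned from 14.9 to 29.2 CPM. The Log2FC against control was 1.21 (95% interval −0.76 to 3.18, edgeR FDR 0.461), and it was −1.66 without ONX-0914 replicate 1 and 2.19 without ONX-0914 replicate 2.

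The markers of other Calb2-expressing cells were uneven in the same libraries. The high level in ONX-0914 replicate 1 stood beside the thalamus and midbrain markers given above and beside the 3 hilar mossy cell markers, whose sum was 54.9 CPM there and 3.92 to 5.998 CPM in the other libraries. Of this sum, 53.6 CPM came from Drd2, which is also a striatum marker and was at 1.92 to 4.56 CPM elsewhere. The 4 calretinin interneuron markers summed to 25.7 CPM in ONX-0914 replicate 1, 57.7 CPM in ONX-0914 replicate 2, 17.8 to 20.9 CPM in control and 23.9 to 25.2 CPM in DMSO, and thus were highest where Calb2 was lowest. The 6 Cajal-Retzius markers summed to 73.7 and 64.8 CPM with ONX-0914, within the 62.2 to 74.5 CPM of control. Most of this sum came from Reln (mean of 41.4 CPM in control). Lhx1, Lhx5 and Ebf3 of this list were at 7.30, 8.81 and 6.80 CPM in ONX-0914 replicate 1. In control they reached at most 1.07, 1.78 and 2.14 CPM. Ndnf and Trp73 lay under control in that library, with the levels given below. The part of these cells in the Calb2 levels was not tested.

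**Figure D2:**
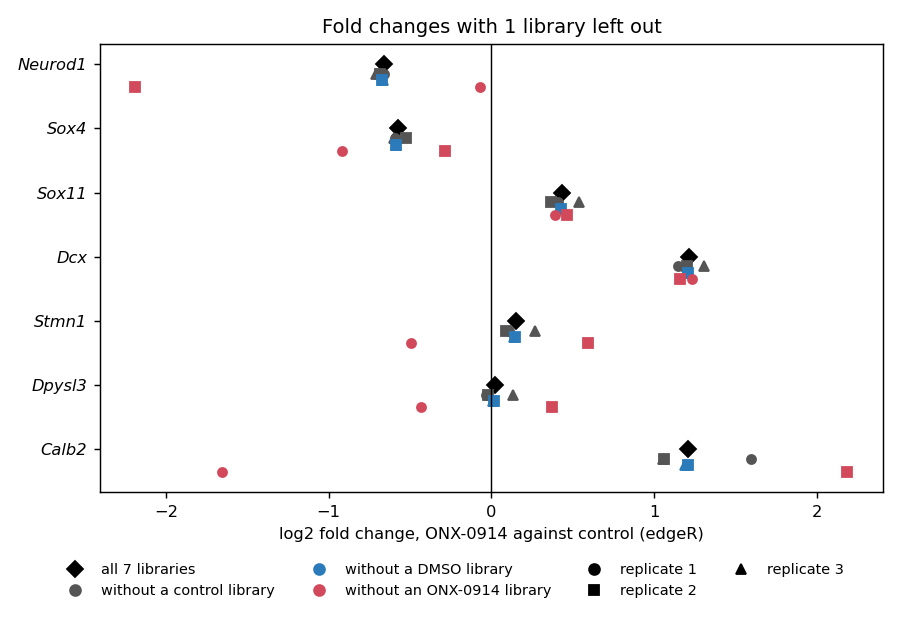
Log2FC of ONX-0914 against control (horizontal axis, edgeR) for the 7 genes tested, with all 7 libraries (black diamonds) and with each library left out in turn (coloured by the group of the library left out, shaped by its replicate number). Dcx stays between 1.15 and 1.31 and Sox11 between 0.37 and 0.54, whereas Calb2 moves from −1.66 to 2.19 and Neurod1 from −2.19 to −0.07 with the ONX-0914 library left out.

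The comparison of DMSO-treated with control mice asked what injection with the solvent alone does to these genes. No member was a DEG and none had an unadjusted p under 0.05, against 0.0152% and 2.65% of all genes tested. Sox4, Sox11 and Neurod1, the transcription factors with enough reads, were higher in both DMSO libraries than in all control libraries, with Log2FC values of 0.45 ± 0.22, 0.51 ± 0.24 and 0.44 ± 0.47 (SE) and unadjusted edgeR p-values of 0.0712, 0.0704 and 0.373. This count of 3 of 7 compares with 15.7% of all genes that lay higher without overlap, and with 30.7% without overlap in either direction. Dcx had a Log2FC of 0.25 (95% interval −0.40 to 0.90), set mainly by DMSO replicate 3, and its groups overlapped. Stmn1 was at 0.01 (−0.67 to 0.69), Dpysl3 at −0.19 (−0.77 to 0.40) and Calb2 at −0.57 (−2.75 to 1.61).

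Both injected groups were also compared with each other, which sets ONX-0914 against its solvent. No member was a DEG, against 0.0456% of all genes, and Dcx and Sox4 had unadjusted p-values under 0.05, against 14.7% of all genes. Sox4 was lower with ONX-0914 than with DMSO, at 23.1 and 35.7 CPM against 55.3 and 63.3 CPM, with a Log2FC of −1.03 ± 0.24 (SE, 95% interval −1.59 to −0.47), an unadjusted p of 0.00264 and an edgeR FDR of 0.164. Dcx was higher, with a Log2FC of 0.96 ± 0.28 (SE, 95% interval 0.31 to 1.61, edgeR FDR 0.22). This Log2FC of Dcx moved more than that against control, to 0.67 without DMSO replicate 2 and 1.26 without DMSO replicate 3. Neurod1 was lower in both ONX-0914 libraries, with a Log2FC of −1.10 ± 0.51 (SE, edgeR FDR 0.354), and was at −0.51 without ONX-0914 replicate 1 and −2.62 without ONX-0914 replicate 2. These 3 of 7 without overlap compare with 40.5% of all genes, since libraries of groups of 2 separate often.

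The remaining genes of the set did not separate ONX-0914 from DMSO. Sox11 had a Log2FC of −0.07 (95% interval −0.65 to 0.51), and its groups overlapped. Stmn1, Dpysl3 and Calb2 had Log2FC values of 0.14, 0.21 and 1.78, each with the ONX-0914 libraries on either side of the DMSO libraries. Since both comparisons of ONX-0914 use the same 2 libraries, and the control libraries serve 2 comparisons, the values are given side by side and are not independent of each other.

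**Figure D3:**
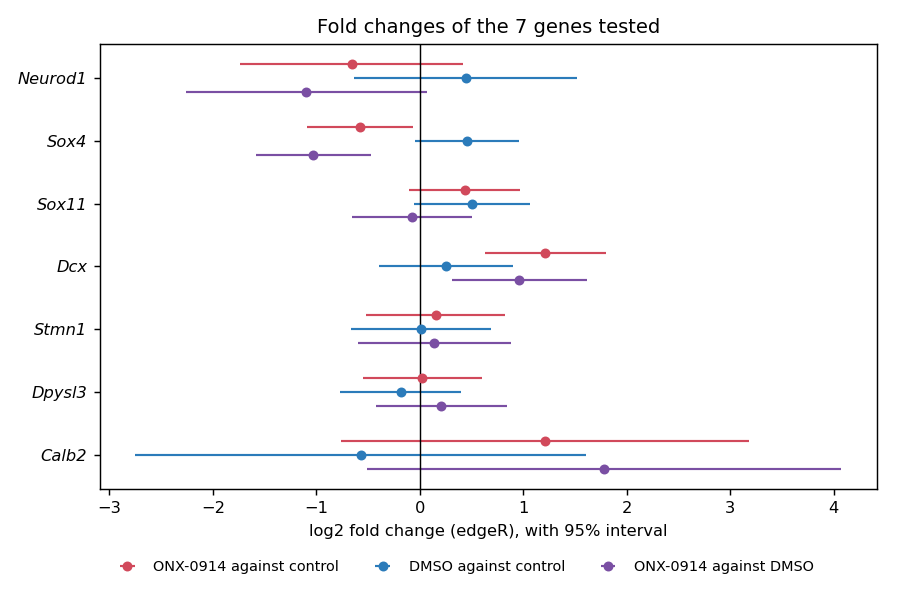
Log2FC with 95% intervals (horizontal axis, edgeR) of the 7 genes tested in the 3 comparisons of groups. The interval of Dcx lies above 0 in both comparisons of ONX-0914 and that of Sox4 lies below 0 in both, before adjustment for the number of genes. Those of Neurod1, Sox11, Stmn1, Dpysl3 and Calb2 cross 0 in all 3.

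Compared per length of exon, the members spanned a wide range of levels in control hippocampus. Stmn1 was highest, with a mean of 75.6 CPM per kilobase over the 3 control libraries. Calb2 (11.3), Sox4 (9.04) and Dpysl3 (8.87) followed, and their control libraries overlapped, so that their order is not resolved. Neurod1 was at 6.76 CPM per kilobase, below every control value of Dpysl3. Sox11 (1.1998), Dcx (0.660), Igfbpl1 (0.521) and Eomes (0.387) were lowest, and among these Dcx, Igfbpl1 and Eomes overlapped with each other. Lengths are those of all annotated exons joined, and Dcx has a long one (12647 bases), so that its level per kilobase depends on which part of it is transcribed.

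The stages before the neuroblast were described by lists of other genes. Of 11 stem cell genes, all tested, none was a DEG in any comparison, and their median Log2FC with ONX-0914 against control was −0.09, where the median over all genes tested was 0.05. The median of the list turned to 0.04 with total counts, where that of all genes was 0.19, and to 0.36 without ONX-0914 replicate 2. Gfap, the intermediate filament of astrocytes and of radial stem cells, had the largest change in this list, with 449 and 803 CPM in the ONX-0914 libraries against 753 to 1344 CPM in control (Log2FC −0.78, edgeR FDR 0.254), and most of its RNA comes from astrocytes. Hes5, a Notch target, had a Log2FC of 0.58 on 2 to 51 reads.

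Of 15 cell cycle genes, 9 had enough reads to be tested, and none was a DEG. All 9 had a negative Log2FC with ONX-0914 against control, with a median of −0.49, where 46.2% of all genes tested had a negative value, and 3 of the 9 lay lower without overlap, against 16.3% of all genes. The number of negative values was 7 with total counts, where 34.9% of all genes were negative, 9 without ONX-0914 replicate 1 and 6 without ONX-0914 replicate 2, with medians of −0.35, −0.73 and −0.10. The summed level of the 15 genes was 83.1 and 94.1 CPM with ONX-0914, 136 to 148 CPM in control and 175 and 181 CPM with DMSO, so that the 3 groups did not overlap. Ccnd2, cyclin D2, which adult-born progenitors need, made up much of this sum. Its control mean was 74.4 CPM, against 1.24 CPM for Mki67, a marker of dividing cells. Which cells made the Ccnd2 RNA was not tested. Ccnd2 was at 30.0 and 46.6 CPM with ONX-0914, 70.6 to 77.9 CPM in control and 102 and 107 CPM with DMSO (Log2FC against control −0.95 ± 0.21 SE, edgeR FDR 0.108).

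Genes used in DNA replication and mitosis had few reads. Mcm6, a subunit of the replicative helicase, was at 2.27 and 11.0 CPM with ONX-0914 and 12.4 to 19.1 CPM in control (Log2FC −1.07, edgeR FDR 0.291). Top2a, the mitotic topoisomerase, had 15 and 9 reads with ONX-0914, which is 3.78 and 0.595 CPM, against 2.999 to 4.63 CPM in control (Log2FC −1.33, edgeR FDR 0.365), and overlapped with control. Mki67, the marker of dividing cells, was not tested and had 1 to 21 reads per library, or 0.357 to 1.65 CPM, with the groups overlapping.

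Of 7 progenitor transcription factors, 3 were tested. Insm1, a zinc finger factor of intermediate progenitors, was at 9.82 and 5.09 CPM with ONX-0914 against 7.91 to 11.8 CPM in control (Log2FC −0.54, edgeR FDR 0.443). None of the 3 was apart from control in both libraries.

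Of 23 other genes of immature neurons, 20 were tested, none was a DEG in any comparison, and the median Log2FC with ONX-0914 against control was −0.22. This median was −0.66 without ONX-0914 replicate 1 and −0.02 without ONX-0914 replicate 2. The 23 genes summed to 2855 and 2259 CPM with ONX-0914, 2902 to 3224 CPM in control and 3306 and 3203 CPM with DMSO. Both ONX-0914 libraries lay under every control library for 9 of the 20 and above every one for 3, against 16.3% and 16.9% of all genes. Nhlh1, a basic helix-loop-helix factor of early neurons, had 0 and 13 reads with ONX-0914 and 5 to 32 reads in control, or 0 and 0.859 CPM against 1.78 to 8.81 CPM (Log2FC −3.04 ± 0.79 SE, edgeR FDR 0.133). Neurod6 had a Log2FC of −1.77 (edgeR FDR 0.257) with the levels given above. Bhlhe22, a transcription factor of granule and pyramidal neurons and the 1 gene of this list with an FDR under 0.1, was at 42.0 and 64.0 CPM with ONX-0914, 109 to 131 CPM in control and 153 and 157 CPM with DMSO (Log2FC against control −1.16 ± 0.21 SE, edgeR FDR 0.0742). Several genes of this list, Neurod2, Neurod6, Bhlhe22 and Prox1 among them, are also made by mature neurons.

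Among 18 close relatives of the members, 15 were tested, none was a DEG, and the median Log2FC with ONX-0914 against control was 0.04, with 8 positive and 7 negative values. The largest values were those of Neurod6 and Neurod2 (−1.51, edgeR FDR 0.25). Calb1, calbindin, which follows Calb2 in maturing granule neurons, was at 111 and 114 CPM with ONX-0914 and 85.3 to 117 CPM in control.

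Mature granule cell markers were lower with ONX-0914 than in control for 9 of 10 genes tested, with a median Log2FC of −0.72, and 7 of the 10 lay lower without overlap with control, where 46.2% of all genes tested were negative and 16.3% lay lower without overlap. Dsp, desmoplakin, which marks dentate granule cells, was at 12.6 and 64.0 CPM with ONX-0914 against 92.0 to 138 CPM in control (Log2FC −1.49, edgeR FDR 0.225). Trpc6, a cation channel enriched in the dentate gyrus, was at 3.52 and 9.78 CPM against 16.8 to 21.8 CPM (Log2FC −1.39, edgeR FDR 0.14). None of the 10 was a DEG. The median was −0.41, with 7 negative values, without ONX-0914 replicate 1, and −1.50, with 9, without ONX-0914 replicate 2. The level of Dcx was highest in the 2 libraries in which the summed markers of mature granule cells were lowest. The sums of the cell cycle genes and of the other immature neuron genes were lowest in the same 2 libraries. Whether any of these is related to Dcx was not tested.

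**Figure D4:**
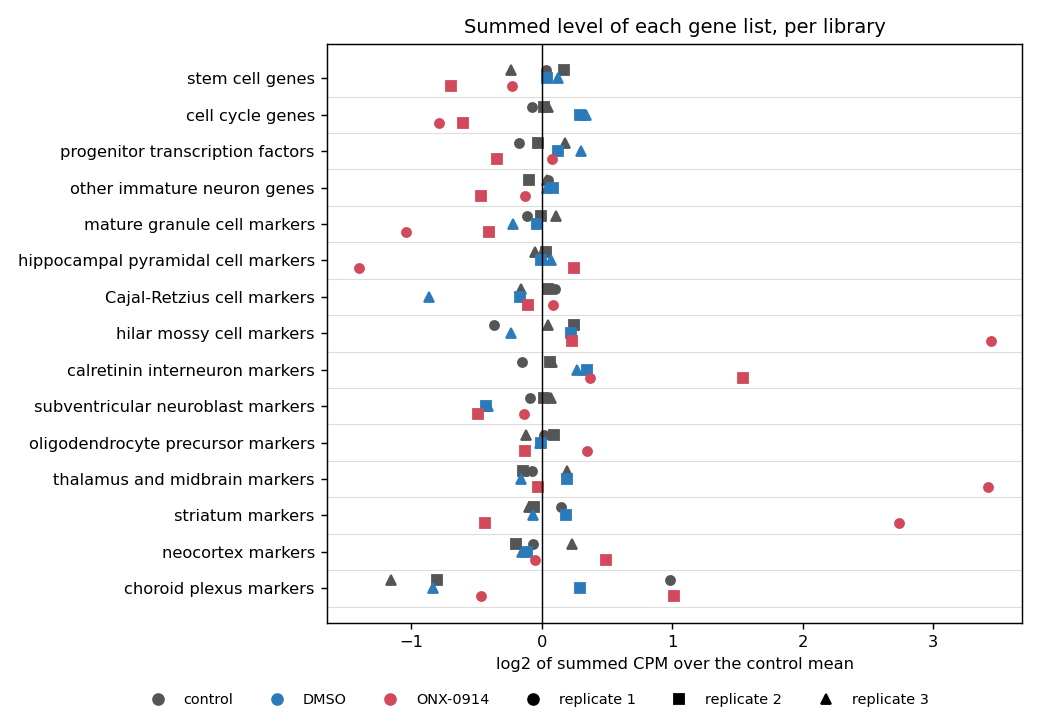
Summed level of each gene list in each library, as log2 of the summed CPM over the mean of the control libraries (horizontal axis), with colours for groups and shapes for replicate numbers. The cell cycle genes, the other immature neuron genes and the mature granule cell markers are lowest in both ONX-0914 libraries. The thalamus and midbrain, striatum and hilar mossy cell markers are high in ONX-0914 replicate 1 alone.

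Lists of other cells and neighbouring regions were examined for sources of the members outside the dentate gyrus. The 7 markers of subventricular neuroblasts, which also express Dcx, Sox11 and Sox4, summed to 57.4 and 44.9 CPM with ONX-0914, 59.2 to 66.1 CPM in control and 47.0 and 47.5 CPM with DMSO. Within this list Dlx6 was at 14.8 and 3.44 CPM with ONX-0914 and 2.85 to 4.68 CPM in control, and Dlx1 was at 16.1 and 20.1 CPM against 26.7 to 36.5 CPM. The 7 oligodendrocyte precursor markers, which mark cells that also make Sox4, Sox11 and some Dcx and Dpysl3, summed to 371 and 268 CPM with ONX-0914 and 268 to 312 CPM in control. In this list Olig1 was at 102 and 124 CPM with ONX-0914 and 58.1 to 77.4 CPM in control (Log2FC 0.71, edgeR FDR 0.14), and Enpp6 was at 3.27 and 7.34 CPM against 1.38 to 4.63 CPM. Of the 7 genes, 4 had a positive and 3 a negative Log2FC against control. Their median was 0.05, where that of all genes tested was also 0.05. The part of these cells in the Dcx level was not tested.

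The lists of regions outside the hippocampus were led by genes that were high in ONX-0914 replicate 1. Tcf7l2, a thalamic transcription factor, was at 107 CPM there and 3.77 to 11.5 CPM in the other libraries. Ramp3 was at 34.5 CPM there and 0.357 to 7.24 CPM elsewhere. Of striatal genes, Adora2a was at 52.9 CPM against 1.07 to 3.22 CPM elsewhere. The 9 neocortex markers summed to 249 and 363 CPM with ONX-0914 and 224 to 303 CPM in control, with Cux2 at 61.4 and 69.9 CPM against 24.2 to 31.7 CPM (Log2FC 1.30, edgeR FDR 0.0518) and Foxp2 at 21.4 and 9.19 CPM against 0.273 to 4.28 CPM. Of the 7 neocortex genes tested, 3 were higher with ONX-0914 without overlap with control, against 16.9% of all genes, and 1 was lower, against 16.3%. The part of neocortex in the Dcx level was not tested.

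Values of the remaining lists are given for the ONX-0914 libraries against control. The 6 choroid plexus markers summed to 69.7 and 195 CPM with ONX-0914 and 43.2 to 191 CPM in control, with Ttr at 50.6 and 157 CPM against 23.1 to 160 CPM and Prlr at 6.80 and 10.0 CPM against 1.64 to 4.28 CPM. Pyramidal cell markers were uneven, with Fibcd1 at 30.2 and 68.7 CPM against 122 to 154 CPM and Spink8 at 1.51 and 21.0 CPM against 5.35 to 6.61 CPM. The calretinin interneuron markers, with the sums given above, had their highest sum in ONX-0914 replicate 2, most of it from Vip. In ONX-0914 replicate 1 their sum of 25.7 CPM hardly exceeded the 25.2 CPM of DMSO replicate 2. Their part in the Dcx level was not tested. Of this list, Crh was at 4.03 and 5.55 CPM against 1.07 to 1.65 CPM and Vip at 12.1 and 44.5 CPM against 9.98 to 13.2 CPM. Of the Cajal-Retzius list, Ndnf was at 6.04 and 15.001 CPM against 19.6 to 22.1 CPM and Trp73 at 4.53 and 3.83 CPM against 4.91 to 5.35 CPM. The 4 cerebellum markers were near 0 in all libraries, with sums of 0.503 to 3.54 CPM and no read of Gabra6 in either ONX-0914 library.

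For each member tested, the 3 genes with the most similar profile over the 7 libraries were found among all genes tested, by the root-mean-square distance of log2 CPM after each gene was centred on its own mean. For Dcx these were Bcam, Tpra1 and Slc25a40, at distances of 0.124, 0.1251 and 0.128, while Dcx itself had a standard deviation of 0.57 over the libraries. For Sox4 they were Ccdc173 (0.0770), Fzd7 (0.103) and Hsph1 (0.106), and for Sox11 they were Pdik1l (0.0586), Dnajc24 (0.0751) and Cdh20 (0.0814). For Neurod1 they were Cabp7 (0.141), 2310002F09Rik (0.151) and Zfp189 (0.161). No member was among the nearest 3 of another member.

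The other members had the following neighbours. For Stmn1 they were Kat5 (0.0479), Pacsin3 (0.0779) and the stem cell gene Sox2 (0.0851), and for Dpysl3 they were Ssbp2 (0.0627), Spag9 (0.0777) and Rab22a (0.0779). Calb2 had Mrap2 (0.158), Plekhd1 (0.358) and Ppp1r1b (0.384) as its nearest genes, of which Ppp1r1b is in the striatum list. Distances this small arise among many genes compared over 7 libraries, and they describe these libraries only.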

How the data were processed

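The authors deposited raw counts of reads per gene, 1 file per library, for 55416 Ensembl gene identifiers. RNA libraries were directional and sequenced single-end, and the submitters' processing notes name Trimmomatic 0.39, STAR 2.7.3a, featureCounts 2.00 and build GRCm39. The annotation release and the strand setting are not given in the sources used here, so that reads shared with antisense genes or near-identical copies are uncertain. Of the reads in the files, 89.6% to 91.4% were assigned to genes, and the others stayed out of library sizes and tests.

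Symbols and exon lengths were those of GENCODE M21 (52083 identifiers matched), and promoters were those of RefSeq. Tests were run with edgeR 4.0.16 in R 4.3.3 (filterByExpr over the 3 groups, TMM, glmQLFit and glmQLFTest with 1 mean per group over all 7 libraries, Benjamini–Hochberg FDR over all 13152 genes, threshold 0.05, prior count 0.125). The common biological coefficient of variation was 0.249. Standard errors came from the F statistics. The 95% intervals used the total degrees of freedom of the fit, which add prior to residual ones. CPM used TMM-scaled library sizes. Poisson intervals and the floor of 3 counts cover counting error only. Distances between gene profiles used a prior count of 2.

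The members and gene lists were chosen with earlier results of these data known, and some genes stand in more than 1 list. The genes named were the members, the 2 tested genes of each list with the largest absolute Log2FC of ONX-0914 against control, any called list gene, and the 3 nearest genes of each member, besides Tubb3, Ccnd2, Mki67, Bhlhe22, Calb1 and the Dclk genes, which were named after their values were seen. The results of 2 genes that the rule names are not reported here. Alternatives were RLE size factors, total counts, no filter, a stricter filter, DESeq2 1.42.0, limma 3.58.1 voom, other edgeR fits, the replicate number as a block, a pooled reference, and each library left out. Libraries were checked for duplicates by chi-square per degree of freedom (2.50 to 3.20 within the control and DMSO groups, 76.9 between the ONX-0914 libraries), and none was a copy. The fit was first tested on simulated data with known changes.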

Additional observations from a re-analysis of the deposited data

How the results depend on the processing

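Over 20 alternatives to the reported fit for ONX-0914 against control and 19 for each other comparison, the fold changes of the 7 members tested kept their sign in 386 of 406 values. With all 7 libraries, no member was called in any comparison except Dcx against control, which was called with no filter on low counts and with all 5 libraries without ONX-0914 as the reference (1 member each); the cause was not tested. Leaving out 1 library gave 0 to 6 members called against control and 0 to 6 against DMSO, 0 except without an ONX-0914 library. Dcx, Calb2 and Stmn1 were called against both groups without either ONX-0914 library, Calb2 and Stmn1 with opposite signs, where 17% to 51.2% of all genes were called and the lone ONX-0914 library was assumed to vary like the other groups. The largest number called against control, without ONX-0914 replicate 1, included Eomes, which passed the filter on low counts in that fit. Eomes is not among the 7 members tested in the reported fit. Its control level rested on a single library, so that this call is not read as a difference. Total counts moved the median of all genes from 0.05 to 0.19 against control.

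With ONX-0914 against control, limma voom turned Calb2 to −0.051 and Dpysl3 to −0.020. With 1 library left out, values ranged from −1.66 to 2.19 for Calb2, −0.43 to 0.37 for Dpysl3, −0.49 to 0.59 for Stmn1, −1.999 to 1.76 for Spink8, −0.59 to 4.20 for Drd2, −0.061 to 2.05 for Dlx6, −0.59 to 4.23 for Tcf7l2 and −0.46 to 1.85 for Ttr. For DMSO against control they ranged from −0.059 to 0.53 for Dcx and −0.052 to 0.12 for Stmn1. For ONX-0914 against DMSO they ranged from −0.19 to 0.031 for Sox11, −1.13 to 2.71 for Calb2, −0.24 to 0.56 for Dpysl3 and −0.50 to 0.58 for Stmn1, and total counts turned Sox11 to 0.062.

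Libraries of the same replicate number did not deviate together (correlations of −0.0963 to 0.0640). In groups of 2 libraries the deviations mirror each other, so that this check cannot show whether the numbers pair the samples. With the replicate number as a block, 0 members were called in each comparison, Calb2 turned to 0.20 for DMSO against control, and Sox11, Calb2 and Stmn1 turned to 0.031, −0.11 and −0.012 for ONX-0914 against DMSO. The members without overlap numbered 3 instead of 4 against control with total counts, and the nearest genes were unchanged with RLE size factors and total counts (21 of 21), which by construction hardly move these distances. The depth limited Eomes, Igfbpl1 and the mitotic genes most.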
